A study of Mus musculus with 15 samples.

Results

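Potassium channel genes were taken as all genes whose symbol starts with Kcn, a family letter or letters and a number. The rule found 84 of 18193 measured genes in RNA of newborn mouse pituitaries (postnatal day 1), read on Affymetrix Mouse Genome 430 2.0 arrays with 1 array per RNA pool. By their symbols the 84 are 22 voltage-gated alpha subunits, 9 silent modifier subunits, 11 calcium- and sodium-activated channel genes, 15 inward rectifiers, 12 tandem-pore-domain channels, 12 auxiliary subunits and 3 non-coding RNAs at a channel locus. The study compared 3 groups of 5 pools, all fed the same high fat chow. Pit1+/+ pools were wild type on the DW/J background. Pit1dw/dw pools were homozygous for the Snell dwarf allele of Pit1 on the same background. Prop1df/df pools, named here as their labels name them, were on the DF/B background. Against either other group, the genotype of Prop1df/df cannot be told apart from its strain. How many pups went into a pool, and of which sex, is not given in the labels. Xist, listed as a marker of the sex of the pools, had a log2 signal of 3.69 in Pit1+/+ pool 4. It read 4.20 and 3.89 in Pit1dw/dw pools 2 and 3. The other Pit1+/+ and Pit1dw/dw pools read 9.60 to 11.14, and the Prop1df/df pools 8.55 to 11.23. Calls lost with the Xist level as a covariate are given below.

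Potassium channels set the resting potential of a cell and end its action potentials. Pituitary cells fire spontaneously, and the calcium that enters during firing drives hormone release, so the channel set of a cell shapes how much it secretes. Large-conductance calcium-activated (BK) channels shape the action potential plateau of somatotrophs and lactotrophs, while inward rectifiers of the GIRK type are opened by dopamine and somatostatin receptors. Pit1 (Pou1f1) is the transcription factor that somatotrophs, lactotrophs and thyrotrophs require. In whole-pituitary RNA, fewer cells of a type and less RNA per cell cannot be told apart.

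The medians of the 15 arrays ran from 4.31 to 4.43 in log2 units, and the number of arrays limits the precision. Growth hormone (Gh) and the thyrotropin beta subunit (Tshb), hormones of Pit1-dependent cells, marked the groups. In pools 1 to 5, Gh read 14.22, 14.26, 14.19, 14.28 and 14.15 in Pit1+/+, 9.76, 9.13, 7.75, 7.15 and 10.31 in Pit1dw/dw and 13.58, 14.07, 14.03, 8.99 and 10.24 in Prop1df/df. Pools 1 to 3 of Prop1df/df lay just below the Pit1+/+ pools for Gh, and pools 4 and 5 among the Pit1dw/dw pools. Tshb split the same 5 pools, at 9.83, 9.89, 9.68, 6.28 and 7.17, against 11.67 to 12.29 in Pit1+/+ and 6.20 to 7.01 in Pit1dw/dw. Counts with Prop1df/df are therefore also given without either set of pools. The mean of the 7 measured of 8 listed Pit1 lineage markers was 6.88, 7.34, 7.20, 5.64 and 5.88 in Prop1df/df pools 1 to 5. It ran from 8.59 to 9.14 in Pit1+/+ and 5.68 to 6.17 in Pit1dw/dw. Against Pit1+/+, 5 of the 7 were lower in Pit1dw/dw and 6 in Prop1df/df. Against Pit1dw/dw, 1 was higher and 2 lower in Prop1df/df. Drd2, on the same list, did not follow the split by Gh (values below). Pit1 transcripts were not analysed here. For pool 1 of Pit1+/+, the genotype given among its labels conflicts with the rest of them. Over 438 genes chosen without it, 6 of them potassium channel genes, its median position was 0.0250 between the other Pit1+/+ pools (0) and the Prop1df/df pools (1), and it was kept in the group of its title. The mean of 13 measured sensory neuron markers ran from 4.49 to 8.87 within Pit1+/+, 4.97 to 8.17 within Pit1dw/dw and 4.37 to 8.73 within Prop1df/df. In Prop1df/df, 2 of 5 bone and cartilage markers were higher than in either other group, and the melanotroph factor Pax7, the measured one of 3 listed melanotroph markers, was lower (log2 change -2.28 against Pit1+/+ and -2.26 against Pit1dw/dw). Gonadotroph markers were higher in Pit1dw/dw than in Pit1+/+ for 3 of 6. In Prop1df/df they were lower for 2 of 6 against Pit1+/+ and 5 of 6 against Pit1dw/dw. Neural lobe and hypothalamus markers were lower in Prop1df/df than in Pit1+/+ for 2 of 7. Corticotroph markers were lower in Prop1df/df for 1 of 5 against Pit1+/+ and 3 of 5 against Pit1dw/dw. The part of these cell types in the changes below was not tested.

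A non-coding RNA, Kcnmb4os2, was the member that passed in Pit1dw/dw against Pit1+/+, and channel genes of several families passed in Prop1df/df, most of them lower. With limma and an adjusted p below 0.05, 1 of 84 passed in Pit1dw/dw against Pit1+/+ (1.19%), lower, and 0 were higher. Of all 18193 genes 0.770% passed, 0.165% higher and 0.605% lower. Prop1df/df against Pit1+/+ gave 19 of 84 (22.6%), 3 higher and 16 lower, beside 10.6% of all genes, 3.25% higher and 7.31% lower. Prop1df/df against Pit1dw/dw gave 12 of 84 (14.3%), 1 higher and 11 lower, beside 6.26% of all genes, 2.21% higher and 4.05% lower. Both comparisons use the same Prop1df/df pools. The median log2 change of the 84 was 0.04, -0.02 and -0.02 in these comparisons, beside -0.02, -0.04 and -0.02 over all genes. At an unadjusted p below 0.05 the counts were 13 of 84 (15.5%; 8.46% of all genes), 21 (25%; 24.4%) and 24 (28.6%; 20.1%).

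Members were also counted whose groups did not overlap in any pool. In Pit1dw/dw 0 members lay wholly above Pit1+/+ (0.863% of all genes) and 5 wholly below it (5.95%; 1.91% of all genes). Prop1df/df had 2 wholly above Pit1+/+ (2.38%; 2.56%) and 9 wholly below (10.7%; 5.45%). Against Pit1dw/dw it had 5 wholly above (5.95%; 3.00%) and 9 wholly below (10.7%; 5.51%). Of the 84 members, 37 had all 3 group means below 4.37, the median of all probe sets, which makes them dim here. Only 1 of the 22 members called in any comparison was among these 37.

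The counts with Prop1df/df moved with the pools in the fit. Without its pools 1 to 3 (Gh above 13), 9 members passed against Pit1+/+ and 6 against Pit1dw/dw. Without its pools 4 and 5 (Gh below 11) the counts were also 9 and 6. Leaving out 1 pool gave 11 members against Pit1+/+ without Pit1+/+ pool 2 and 12 without Prop1df/df pool 5, and 7 against Pit1dw/dw without Pit1dw/dw pool 2. Pit1dw/dw against Pit1+/+ gave 3 members without Pit1+/+ pool 3 and 3 without Pit1+/+ pool 5.

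**Figure D1:**
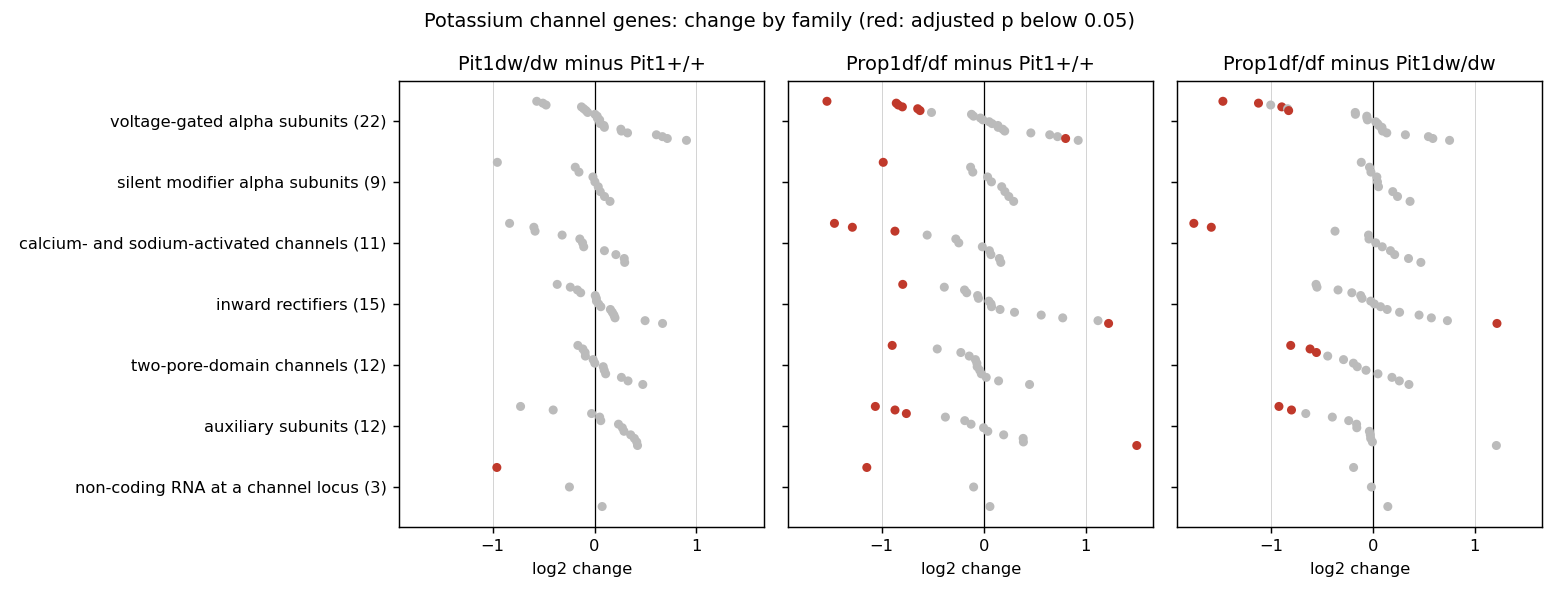
Log2 change of each of the 84 potassium channel genes (x axis, 1 point per gene) by family (rows, with the number of genes) in the 3 comparisons; red points have a limma adjusted p below 0.05. Pit1dw/dw minus Pit1+/+ has 1 red point, a non-coding RNA, Prop1df/df minus Pit1+/+ has 19 and Prop1df/df minus Pit1dw/dw has 12, most of them below 0.

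The member called in Pit1dw/dw is Kcnmb4os2, a non-coding RNA transcribed from the strand opposite Kcnmb4, which encodes the beta subunit of BK channels found in neurons and endocrine cells. In RefSeq on GRCm38.p6, Kcnmb4 spans chr10:116417861-116473859 on the minus strand and Kcnmb4os2 spans chr10:116473163-116474987 on the plus strand, and the spans share 697 bases. A start window of each is shown because the transcript starts they are built on lie 360 bases apart on opposite strands. The Kcnmb4 window belongs to a transcript that starts 336 bases inside the edge of the gene's span, so its lower-case part lies within that span. It is chr10:116473474-116473773 (minus strand), with 79.0% G and C and 48 CpG. The other is chr10:116472913-116473212 (plus strand), with 61.7% and 19 CpG. Capitals mark the 50 bases from the start of that transcript on, and the 250 bases before it are in lower case.
Kcnmb4: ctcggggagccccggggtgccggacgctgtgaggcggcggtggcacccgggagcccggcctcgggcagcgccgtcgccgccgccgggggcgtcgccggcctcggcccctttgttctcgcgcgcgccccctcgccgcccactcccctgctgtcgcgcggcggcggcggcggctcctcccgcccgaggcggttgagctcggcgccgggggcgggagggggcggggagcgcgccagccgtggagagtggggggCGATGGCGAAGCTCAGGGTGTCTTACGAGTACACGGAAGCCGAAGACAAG
Kcnmb4os2: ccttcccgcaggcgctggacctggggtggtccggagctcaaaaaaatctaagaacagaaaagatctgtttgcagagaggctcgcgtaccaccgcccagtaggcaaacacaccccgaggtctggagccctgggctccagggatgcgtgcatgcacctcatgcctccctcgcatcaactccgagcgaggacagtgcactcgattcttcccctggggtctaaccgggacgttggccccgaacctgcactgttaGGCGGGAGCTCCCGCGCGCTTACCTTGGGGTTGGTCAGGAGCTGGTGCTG

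The Kcnmb4 window is among the richest in G and C, with 98.6% of RefSeq start windows below it, while 74.6% lie below the Kcnmb4os2 window. Start windows were given for 64 of the 84 members, 89 in all, with a median of 58.0% G and C beside 52.7% over all 32851 windows. On either strand, the POU1F1-type motif ATGNATA (N, any base) was in 8.84% of all windows and in 2 of 89 member windows (2.25%). None of the 26 windows of called members, for 18 of 22 genes, held it, so it does not occur in the 2 windows printed. These letters were looked for in these windows alone.

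BK channel genes and the antisense RNA. Kcnmb4os2 was lower in both mutants than in wild type. In pools 1 to 5, Kcnmb4os2 read 4.48, 4.76, 4.08, 4.78 and 3.96 in Pit1+/+, 3.49, 3.28, 3.52, 3.40 and 3.57 in Pit1dw/dw and 3.41, 3.06, 3.65, 3.19 and 3.01 in Prop1df/df. All 5 Pit1+/+ pools lay above all 10 mutant pools. The change was -0.96 (SE 0.17, 1.94-fold lower, adjusted p = 0.0103) in Pit1dw/dw and -1.15 (SE 0.17, 2.21-fold lower, adjusted p = 0.000385) in Prop1df/df, and the difference between the mutants did not pass (-0.19, SE 0.17, adjusted p = 0.577). Both mutant means, 3.45 ± 0.12 and 3.26 ± 0.27 (SD, n = 5), lie in the dim range. The Pit1dw/dw call was lost without the pools with the peripheral neuron marker Prph above 7 (log2 change -1.01, adjusted p = 0.0925; Pit1+/+ pool 3, Pit1dw/dw pools 2 and 3 and Prop1df/df pools 3 and 4). It kept its side of the threshold with any 1 pool left out, and the gene drops out of the test when dim probe sets are left out. The Kcnmb4 transcript itself followed with less certainty. Kcnmb4 read 7.17, 7.47, 7.10, 7.08 and 6.34 in Pit1+/+ pools 1 to 5, 5.58, 6.26, 6.64, 6.02 and 6.48 in Pit1dw/dw and 5.47, 6.27, 6.62, 6.50 and 5.95 in Prop1df/df. Pit1+/+ pools 1 to 4 lay above all mutant pools and pool 5 did not. Kcnmb4 was lower in Prop1df/df (log2 change -0.87, SE 0.25, 1.83-fold lower, adjusted p = 0.0359) and did not pass in Pit1dw/dw (log2 change -0.83, SE 0.25, adjusted p = 0.22). The Prop1df/df call of Kcnmb4 was lost without any 1 of 7 pools, Pit1+/+ pools 1 to 4 and Prop1df/df pools 1, 2 and 5 (adjusted p 0.0600 to 0.0974), and without either set of Prop1df/df pools split by Gh (adjusted p = 0.191 and 0.0918). The other RNA antisense to it, Kcnmb4os1, was dim, at 3.04 ± 0.24, 2.80 ± 0.06 and 2.94 ± 0.11. Each of Kcnmb4 and Kcnmb4os2 has 1 probe set, and whether either reads the opposite strand was not tested.

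Kcnmb2, the beta subunit that gives BK channels their fast inactivation, went another way. The pool values of Kcnmb2 were 6.39, 7.16, 6.35, 6.36 and 6.74 in Pit1+/+, 6.70, 7.25, 6.45, 7.27 and 6.81 in Pit1dw/dw and 5.67, 5.65, 5.51, 4.62 and 5.11 in Prop1df/df. All Prop1df/df pools lay below all other pools. Kcnmb2 was lower in Prop1df/df than in Pit1+/+ (log2 change -1.29, SE 0.23, 2.44-fold lower, adjusted p = 0.00169) and than in Pit1dw/dw (log2 change -1.58, SE 0.23, 3.00-fold lower, adjusted p = 0.000427). In Pit1dw/dw against Pit1+/+ it did not pass (log2 change 0.30, SE 0.23, adjusted p = 0.827). A further, dim probe set of Kcnmb2 had changes of -0.56 (adjusted p = 0.140) and -0.91 (adjusted p = 0.0213) in the comparisons with Prop1df/df. The pore-forming BK subunit, Kcnma1, changed differently again. Across the pools, in order, Kcnma1 gave 6.67, 7.39, 6.67, 6.91 and 7.24 in Pit1+/+, then 6.50, 6.58, 5.92, 6.46 and 6.44 in Pit1dw/dw and 6.85, 6.69, 6.59, 6.59 and 6.94 in Prop1df/df. Every Pit1dw/dw pool lay below every Pit1+/+ and every Prop1df/df pool, but no comparison passed: the log2 change was -0.60 in Pit1dw/dw against Pit1+/+ (SE 0.16, adjusted p = 0.146), -0.24 in Prop1df/df against Pit1+/+ (adjusted p = 0.379) and 0.35 in Prop1df/df against Pit1dw/dw (adjusted p = 0.232). Its 5 probe sets ran from -0.60 to 0.10 in Pit1dw/dw against Pit1+/+ and from -0.24 to 0.41 in Prop1df/df against Pit1+/+, so the direction for Kcnma1 depends on the probe set. The remaining BK beta subunit measured, Kcnmb1, was dim in every group (2.86 to 2.96).

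**Figure D2:**
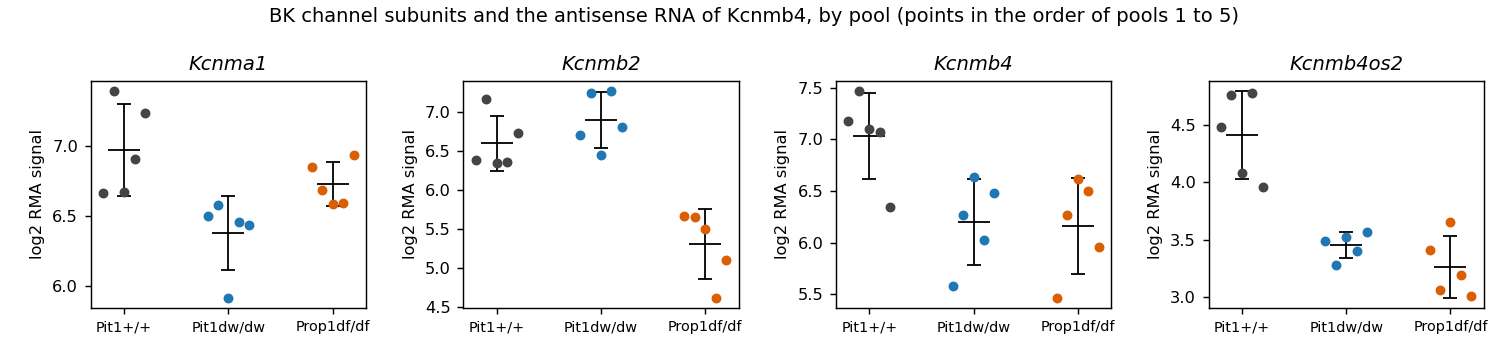
Log2 RMA signal (y axis) of the BK channel genes Kcnma1, Kcnmb2 and Kcnmb4 and of Kcnmb4os2 in each pool; points are pools 1 to 5 in order within each group on the x axis, and the bars give the mean and SD (n = 5). Kcnmb2 is lowest in all 5 Prop1df/df pools, Kcnmb4os2 is highest in all 5 Pit1+/+ pools and Kcnma1 is lowest in all 5 Pit1dw/dw pools.

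Among the other calcium- and sodium-activated channels, Kcnt1, the sodium-activated channel Slack, fell the most in Prop1df/df. In pools 1 to 5, Kcnt1 read 6.90, 6.20, 7.03, 6.72 and 6.32 in Pit1+/+, 7.28, 6.81, 7.11, 6.71 and 6.71 in Pit1dw/dw and 4.64, 5.52, 5.70, 5.73 and 4.26 in Prop1df/df. No Prop1df/df pool reached the lowest pool of another group. Its change was -1.46 against Pit1+/+ (SE 0.27, 2.76-fold lower, adjusted p = 0.0023) and -1.76 against Pit1dw/dw (SE 0.27, 3.38-fold lower, adjusted p = 0.000657). Averaging its 3 probe sets ended the call against Pit1+/+ (adjusted p = 0.113). The other probe sets gave -0.45 and 0.10 there and neither passed. Its relative Kcnt2 did not pass in any comparison, with group means of 5.22, 5.10 and 5.28. In all, 3 of the 11 genes of this family were lower in Prop1df/df than in Pit1+/+ and 2 than in Pit1dw/dw, and 0 were higher. Of all genes, 7.31% and 4.05% were lower in these comparisons. The small-conductance channels did not pass: Kcnn2 was at 6.61 ± 0.26, 6.29 ± 0.11 and 6.76 ± 0.30 in Pit1+/+, Pit1dw/dw and Prop1df/df, and Kcnn3 at 4.01, 4.22 and 4.18. The intermediate-conductance channel Kcnn4 was at 5.48 ± 0.44, 4.89 ± 0.31 and 4.92 ± 0.43 (SD, n = 5), with a change of -0.58 in Pit1dw/dw (adjusted p = 0.458) and -0.55 in Prop1df/df (adjusted p = 0.15) against Pit1+/+.

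Voltage-gated channels made up 7 of the 19 calls in Prop1df/df against Pit1+/+, 1 higher and 6 lower among 22. They made up 4 of the 12 against Pit1dw/dw, all lower. Of all genes, 10.6% and 6.26% passed in these comparisons. In Pit1dw/dw against Pit1+/+ 0 of 22 passed (3 at an unadjusted p below 0.05). Kcnc1 encodes a fast delayed rectifier that lets cells fire at high rates. The pool values of Kcnc1 were 6.04, 5.64, 7.02, 5.93 and 5.58 in Pit1+/+, 5.78, 5.84, 6.34, 5.44 and 6.46 in Pit1dw/dw and 4.30, 4.67, 5.10, 4.29 and 4.15 in Prop1df/df. Its Prop1df/df pools all lay below the others. Kcnc1 was lower than in Pit1+/+ (log2 change -1.54, SE 0.27, 2.9-fold lower, adjusted p = 0.00169) and than in Pit1dw/dw (log2 change -1.47, SE 0.27, 2.77-fold lower, adjusted p = 0.00302). The probe sets of Kcnc1 disagreed. Of its 4, those not used gave 0.12, -0.80 and 0.28 against Pit1+/+, none passing, and 0.06, -0.97 (adjusted p = 0.0302) and 0.50 (adjusted p = 0.0307, higher) against Pit1dw/dw. Those 3 sets had group means between 3.10 and 4.37, against 4.50 to 6.04 for the set used. Kcnc2, of the same subfamily, did not pass, with -0.51 (adjusted p = 0.212) and -0.84 (adjusted p = 0.0548). Against Pit1dw/dw it passed without Pit1+/+ pool 3 or 5, Pit1dw/dw pool 4 or Prop1df/df pool 3 (adjusted p 0.0284 to 0.0481). Kcnc2 also passed there in 6 other alternatives (adjusted p 0.00785 to 0.0462). With the sensory neuron marker mean as a covariate it passed against Pit1+/+ as well (adjusted p = 0.0262).

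Kcnh1, Kcnh2 and Kcna5 fell in Prop1df/df against both other groups. Kcnh1 encodes an ether-à-go-go channel. Kcnh1 read 6.68, 6.93, 6.81, 6.73 and 6.42 in Pit1+/+ pools 1 to 5, 7.16, 7.36, 6.84, 6.79 and 6.73 in Pit1dw/dw and 5.46, 6.01, 6.15, 6.10 and 5.56 in Prop1df/df. The highest Prop1df/df pool, at 6.15, lay below the lowest pool of the other groups, at 6.42. Kcnh1 was lower against Pit1+/+ (log2 change -0.86, SE 0.16, 1.81-fold lower, adjusted p = 0.00294) and Pit1dw/dw (log2 change -1.12, SE 0.16, 2.17-fold lower, adjusted p = 0.000463), and its other probe set gave -0.32 (adjusted p = 0.422) and -0.80 (adjusted p = 0.0401). Kcnh2 encodes the ERG channel, whose current helps to hold the resting potential of lactotrophs. In pools 1 to 5, Kcnh2 read 5.55, 5.54, 5.87, 5.33 and 4.55 in Pit1+/+, 5.42, 5.41, 5.69, 5.31 and 5.30 in Pit1dw/dw and 3.94, 4.64, 5.32, 4.55 and 4.21 in Prop1df/df. Pool 5 of Pit1+/+ and pool 3 of Prop1df/df made the groups overlap. Kcnh2 just passed, by -0.84 (SE 0.25, adjusted p = 0.0408) against Pit1+/+ and -0.89 (SE 0.25, adjusted p = 0.0435) against Pit1dw/dw. The call against Pit1+/+ was lost without any 1 of 12 pools, that is all but Pit1+/+ pool 5, Pit1dw/dw pool 3 and Prop1df/df pool 3 (adjusted p 0.0519 to 0.112). The call against Pit1dw/dw was also lost without any 1 of 12, all but Pit1+/+ pools 3 and 5 and Prop1df/df pool 3 (adjusted p 0.0514 to 0.116).

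Kcna5 encodes a delayed rectifier of the Shaker family. The pool values of Kcna5 were 7.38, 8.02, 7.07, 7.90 and 6.91 in Pit1+/+, 7.46, 7.49, 7.55, 7.63 and 7.28 in Pit1dw/dw and 6.87, 6.87, 6.80, 6.64 and 6.11 in Prop1df/df. Its Prop1df/df pools, up to 6.87, lay just below the lowest pools of Pit1+/+ (6.91) and Pit1dw/dw (7.28). The change was -0.80 (SE 0.21, 1.74-fold lower, adjusted p = 0.0198) and -0.82 (SE 0.21, 1.77-fold lower, adjusted p = 0.0232). Against Pit1+/+ the call of Kcna5 was lost without Pit1+/+ pool 2, Pit1+/+ pool 4 or Prop1df/df pool 5 (adjusted p 0.0533 to 0.0577), and against Pit1dw/dw without Pit1dw/dw pool 2, 3 or 4 or Prop1df/df pool 5 (adjusted p 0.0529 to 0.0634). Kcnd3, an A-type channel, and Kcnh8 were lower in Prop1df/df than in Pit1+/+. Kcnd3 was at 9.06 ± 0.15, 8.58 ± 0.12 and 8.41 ± 0.42 (log2 change -0.65, SE 0.16, adjusted p = 0.0185 in Prop1df/df; -0.48, adjusted p = 0.344 in Pit1dw/dw). Kcnh8 was at 6.37 ± 0.25, 5.80 ± 0.31 and 5.74 ± 0.32 (-0.62, SE 0.18, adjusted p = 0.0354 in Prop1df/df; -0.57, adjusted p = 0.268 in Pit1dw/dw). For both, every Pit1dw/dw pool lay below every Pit1+/+ pool. Kcnd3 lost its call without Prop1df/df pool 1, 2 or 5 (adjusted p 0.0522 to 0.0547), and Kcnh8 without Pit1+/+ pool 2 or 4 or Prop1df/df pool 2 or 5 (adjusted p 0.0760 to 0.0944). Kcnd3 has 4 probe sets, of which the others gave -0.21 to 0.14. Kcnd2 read 4.67, 4.72 and 4.55 in the 3 groups and did not pass.

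Kcnq5, an M-type channel that slows firing, was the voltage-gated gene higher in Prop1df/df. Across the pools, in order, Kcnq5 gave 7.06, 6.42, 7.79, 7.09 and 7.02 in Pit1+/+, then 8.0, 7.45, 7.67, 7.84 and 7.99 in Pit1dw/dw and 7.99, 7.81, 7.85, 7.68 and 8.07 in Prop1df/df. Pit1+/+ pool 3, at 7.79, reached into the range of both mutants and its other pools did not. Kcnq5 was higher in Prop1df/df (log2 change 0.80, SE 0.19, 1.75-fold higher, adjusted p = 0.0132), while the similar shift in Pit1dw/dw did not pass (log2 change 0.71, SE 0.19, 1.64-fold higher, adjusted p = 0.147). Without the pools with Prph above 7, Kcnq5 passed in Pit1dw/dw as well (log2 change 1.05, adjusted p = 0.0375) and was then the 1 member called there, and it passed without Pit1+/+ pool 3 alone (adjusted p = 0.0129). In Prop1df/df it kept its call with any 1 pool left out, and not without either set of pools split by Gh (adjusted p = 0.148 and 0.0546). The 2 dim probe sets of Kcnq5 gave -0.05 and 0.21. Kcnq3, another M-type subunit, was at 5.29 ± 0.52, 4.78 ± 0.69 and 5.37 ± 0.18 and did not pass.

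The silent modifier subunits, which form no channel alone and alter other voltage-gated subunits, held 1 call among 9. It fell in Prop1df/df against Pit1+/+, where 10.6% of all genes passed. Kcng1 gave 4.19, 4.46, 3.24, 4.48 and 3.24 in Pit1+/+, 3.17, 2.79, 3.11, 2.78 and 2.99 in Pit1dw/dw and 2.73, 2.87, 3.11, 3.11 and 2.87 in Prop1df/df. All mutant pools lay below all Pit1+/+ pools, but pools 3 and 5 of Pit1+/+, both at 3.24, were close to them. The fall was -0.99 (SE 0.23, adjusted p = 0.011) in Prop1df/df and -0.95 (SE 0.23, adjusted p = 0.0783) in Pit1dw/dw, where it passed without Pit1+/+ pool 3 or pool 5 (adjusted p = 0.0207 and 0.0171). In Prop1df/df the call was lost without pools 1 to 3 of that group (adjusted p = 0.152). All values lay at or below 4.48, near or under the overall median, and its other probe set gave 0.11 in Prop1df/df.

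**Figure D3:**
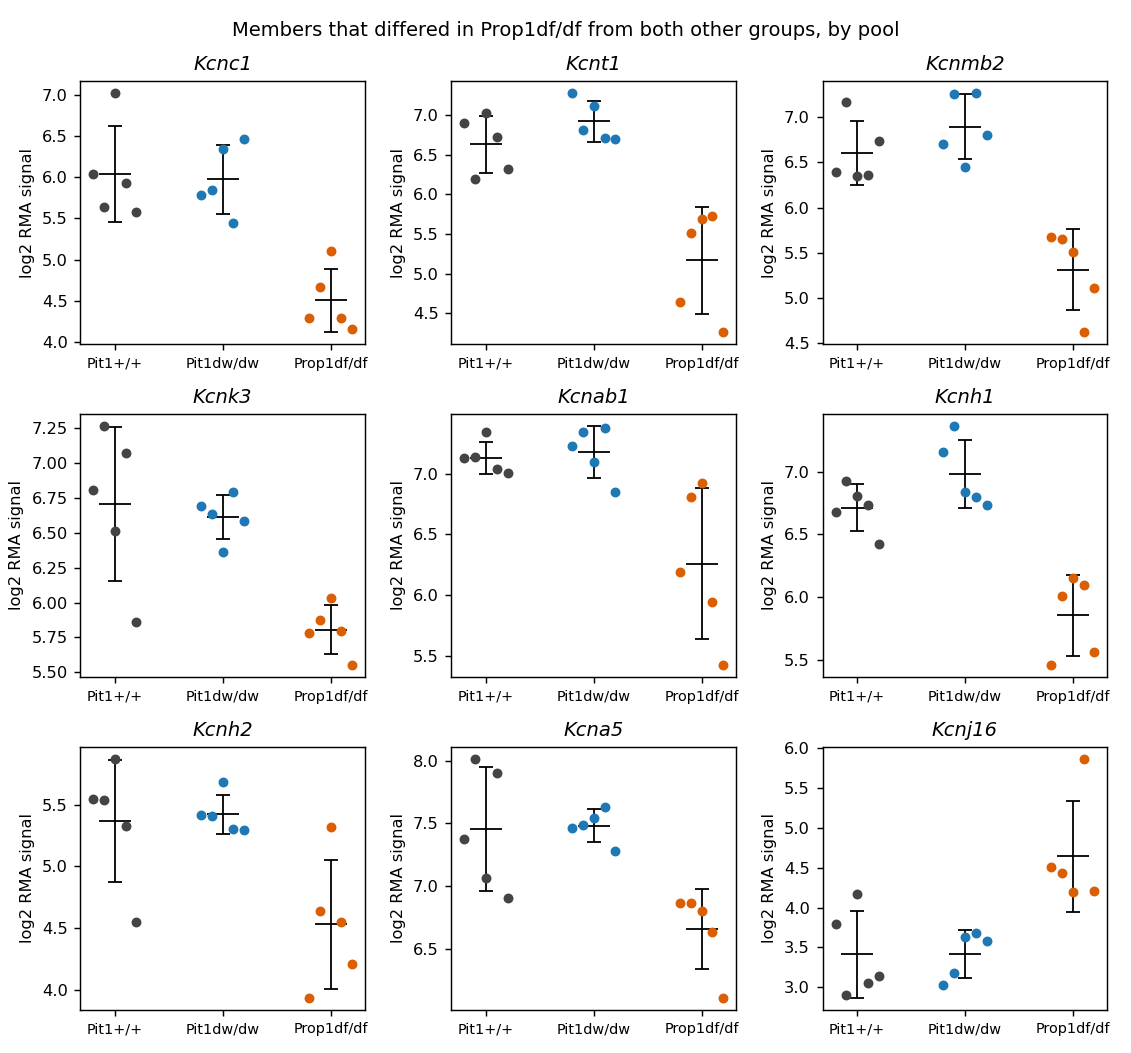
Log2 RMA signal (y axis) of the 9 potassium channel genes that differed in Prop1df/df from both other groups, by pool; points are pools 1 to 5 in order within each group on the x axis and the bars give the mean and SD (n = 5). Kcnj16 is higher in Prop1df/df and the other 8 are lower, with no overlap for Kcnc1, Kcnt1, Kcnmb2, Kcnh1 and Kcna5.

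Inward rectifiers pass potassium more readily into the cell than out of it. Of 15, 1 was higher and 1 lower in Prop1df/df than in Pit1+/+, beside 3.25% and 7.31% of all genes. Kcnj16, a subunit with a known part in glia and epithelia, was the higher one. In pools 1 to 5, Kcnj16 read 3.79, 2.9, 4.17, 3.06 and 3.14 in Pit1+/+, 3.03, 3.18, 3.64, 3.69 and 3.57 in Pit1dw/dw and 4.50, 4.43, 4.20, 5.86 and 4.20 in Prop1df/df. Every Prop1df/df pool lay above every other pool, and pool 4 stood highest. Kcnj16 was higher against Pit1+/+ (log2 change 1.23, SE 0.31, 2.34-fold higher, adjusted p = 0.0171) and Pit1dw/dw (log2 change 1.22, SE 0.31, 2.33-fold higher, adjusted p = 0.0252). The first call was lost without Pit1+/+ pool 2 (adjusted p = 0.0512) and the second without Pit1dw/dw pool 1 or 2 (adjusted p 0.0642 to 0.0678). The first was also lost with only the 2 groups compared in the fit (adjusted p = 0.0563). The second was also lost with the Xist level as a covariate (adjusted p = 0.0709). The Pit1+/+ and Pit1dw/dw means, 3.41 and 3.42, lie in the dim range, so the folds set a dim level against a brighter one. The other probe set, dim in all groups, gave 0.28 and 0.36, not passing. GIRK channels are built from Kcnj3, Kcnj5, Kcnj6 and Kcnj9. The pool values of Kcnj3 were 6.65, 7.18, 7.06, 6.32 and 6.90 in Pit1+/+, 6.37, 6.61, 6.70, 6.54 and 6.71 in Pit1dw/dw and 5.47, 5.67, 6.53, 6.02 and 6.46 in Prop1df/df. Kcnj3 was lower in Prop1df/df than in Pit1+/+ (log2 change -0.79, SE 0.20, 1.73-fold lower, adjusted p = 0.0197), with Prop1df/df pools 3 and 5 inside the Pit1+/+ range, and it did not pass in Pit1dw/dw (-0.24, adjusted p = 0.858). The call was lost without Pit1+/+ pool 2 or Prop1df/df pool 1 or 2 (adjusted p 0.0547 to 0.0584) and with the mean of its 4 probe sets (adjusted p = 0.841), of which the others gave 0.01 to 0.31. The other GIRK subunits were dim in all groups: Kcnj5 at 2.67 to 2.83, Kcnj6 at 3.21 to 3.29 and Kcnj9 at 3.50 to 3.84.

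Receptors that couple to GIRK channels were lower in the mutants where they passed. Against Pit1+/+ this held for 1 of 7 measured in Pit1dw/dw and 4 of 7 in Prop1df/df. In Prop1df/df against Pit1dw/dw it held for 2 of 7. The shares of all genes lower in these comparisons were 0.605%, 7.31% and 4.05%. The dopamine receptor Drd2, through which dopamine restrains prolactin release, gave 6.95, 7.11, 7.01, 6.59 and 5.68 in Pit1+/+, 6.14, 6.89, 6.96, 7.01 and 6.78 in Pit1dw/dw and 4.75, 5.29, 5.06, 5.40 and 4.85 in Prop1df/df. Drd2 was thus lowest in all Prop1df/df pools (log2 change -1.60, SE 0.25, 3.02-fold lower, adjusted p = 0.000589 against Pit1+/+), and in Pit1dw/dw the change of 0.08 did not pass. The somatostatin receptor Sstr3 was lower in Prop1df/df (log2 change -1.16, SE 0.23, 2.24-fold lower, adjusted p = 0.00404), as was Sstr2 (log2 change -0.94, SE 0.21, 1.92-fold lower, adjusted p = 0.00845). The dim Sstr5 was lower in both mutants (-0.62, adjusted p = 0.0194; -0.40, adjusted p = 0.0435). KATP channels join a pore, Kcnj11 or Kcnj8, to a sulfonylurea receptor, Abcc8 or Abcc9. With all pools neither pore passed. Kcnj11 was at 5.83 ± 0.44, 5.46 ± 0.22 and 5.44 ± 0.32, and Kcnj8 at 5.86 ± 0.64, 5.69 ± 0.39 and 6.43 ± 0.41 (SD, n = 5). Without Pit1+/+ pool 5, Kcnj11 was lower in Prop1df/df than in Pit1+/+ (-0.57, adjusted p = 0.0234) and Kcnj8 higher than in Pit1dw/dw (0.73, adjusted p = 0.0406). The probe sets of Kcnj11 went opposite ways in Prop1df/df against Pit1+/+. With all pools, the set used gave -0.39 and the other 0.31, neither passing. The partners Abcc8 and Abcc9 did pass. Abcc8 read 6.43, 6.41, 6.52, 6.69 and 5.31 in Pit1+/+, 4.82, 5.11, 5.63, 4.86 and 4.95 in Pit1dw/dw and 4.20, 4.33, 5.22, 4.64 and 4.81 in Prop1df/df. Abcc8 was lower in Pit1dw/dw (log2 change -1.20, SE 0.25, 2.29-fold lower, adjusted p = 0.0362) and in Prop1df/df (log2 change -1.63, SE 0.25, 3.10-fold lower, adjusted p = 0.000589). Abcc9 was lower in Prop1df/df, at 5.40 against 7.32 in Pit1+/+ (log2 change -1.92, SE 0.23, 3.78-fold lower, adjusted p = 5.51e-05) and 7.16 in Pit1dw/dw (log2 change -1.76, SE 0.23, 3.38-fold lower, adjusted p = 0.000157). In all, 14 of 17 listed partners were measured. Of these, 2 were lower in Pit1dw/dw (0.605% of all genes) and 4 in Prop1df/df (7.31%) than in Pit1+/+, with 0 higher. The others were Dpp10, a partner of A-type channels, at 5.53, 4.63 and 4.50 (-0.90, adjusted p = 0.0317; -1.03, adjusted p = 0.00195), and Pex5l, a partner of HCN channels, at 6.40, 6.37 and 5.27 (-1.13, adjusted p = 0.000536 in Prop1df/df).

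Tandem-pore-domain channels carry background potassium current. Of 12, 1 was lower in Prop1df/df than in Pit1+/+ and 3 than in Pit1dw/dw, and none was higher at this threshold. Lower in the same comparisons were 7.31% and 4.05% of all genes. Kcnk3 encodes the acid-sensitive channel TASK. Kcnk3 read 6.81, 7.27, 6.52, 7.07 and 5.86 in Pit1+/+ pools 1 to 5, 6.69, 6.63, 6.36, 6.79 and 6.59 in Pit1dw/dw and 5.78, 5.87, 6.03, 5.80 and 5.55 in Prop1df/df. Prop1df/df lay below all Pit1dw/dw pools and overlapped Pit1+/+ through Pit1+/+ pool 5. Kcnk3 was lower against Pit1+/+ (log2 change -0.90, SE 0.20, 1.86-fold lower, adjusted p = 0.0097) and Pit1dw/dw (log2 change -0.80, SE 0.20, 1.75-fold lower, adjusted p = 0.0265). The second call was lost without any 1 of 6 pools, Prop1df/df pools 1 and 5 and Pit1dw/dw pools 1, 2, 4 and 5 (adjusted p 0.0515 to 0.0722), and both were lost without either set of Prop1df/df pools split by Gh. Its other probe sets gave -0.23 and 0.22 against Pit1+/+. Kcnk1, a bright member, separated the mutants from each other. The pool values of Kcnk1 were 9.29, 9.77, 9.26, 9.66 and 9.34 in Pit1+/+, 9.75, 9.96, 9.69, 9.80 and 9.77 in Pit1dw/dw and 9.11, 9.36, 8.98, 9.45 and 9.31 in Prop1df/df. All Prop1df/df pools lay below all Pit1dw/dw pools (log2 change -0.55, SE 0.12, 1.47-fold lower, adjusted p = 0.0128), with the Pit1+/+ mean in between and neither comparison with it passing. Kcnk15 showed the same order, at 4.23 ± 0.20, 4.70 ± 0.30 and 4.09 ± 0.13 (-0.61, SE 0.14, adjusted p = 0.015 in Prop1df/df against Pit1dw/dw). The other probe set of Kcnk1 gave -0.42 in that comparison and did not pass. Without the pools with Prph above 7 both calls were lost (Kcnk1, adjusted p = 0.109; Kcnk15, adjusted p = 0.135). Without Prop1df/df pools 1 to 3 they were lost as well (adjusted p = 0.247 and 0.133), and Kcnk15 also without pools 4 and 5 (adjusted p = 0.0806). Kcnk2, the mechanosensitive channel TREK, stayed within 8.45 to 9.19 over all 15 pools and did not pass.

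Auxiliary subunits held the member that rose most in Prop1df/df against Pit1+/+. Kcne4, which restrains voltage-gated channels, is a small membrane subunit. In pools 1 to 5, Kcne4 read 7.89, 5.42, 7.39, 7.58 and 6.96 in Pit1+/+, 7.25, 6.85, 7.14, 7.73 and 7.73 in Pit1dw/dw and 8.41, 8.76, 8.70, 8.26 and 8.62 in Prop1df/df. All Prop1df/df pools lay above all others, and pool 2 of Pit1+/+ stood low. Kcne4 was higher against Pit1+/+ (log2 change 1.5, SE 0.35, 2.83-fold higher, adjusted p = 0.011). Against Pit1dw/dw it just missed the threshold (log2 change 1.21, SE 0.35, 2.32-fold higher, adjusted p = 0.0516) and passed without Pit1+/+ pool 1, 2 or 5 (adjusted p 0.00142 to 0.0497). It also passed there in 7 other alternatives (adjusted p 0.00171 to 0.0494). Kcne4 kept its call against Pit1+/+ with any 1 pool left out, and not without Prop1df/df pools 1 to 3 (adjusted p = 0.166). The 2 bone and cartilage markers that were higher in Prop1df/df, Col2a1 and Col9a1, had means of 8.85 and 8.13 there, against 7.0 and 7.15 in Pit1+/+. The mean of the 5 markers ran from 7.18 to 8.96 in Prop1df/df, 4.80 to 7.70 in Pit1+/+ and 5.86 to 7.80 in Pit1dw/dw. Of the 5, Sp7 had Pit1+/+ and Pit1dw/dw means below 4.37. The mean of 7 pericyte and smooth muscle markers was also lowest of Pit1+/+ in pool 2 (5.89), and 0 of those 7 passed in any comparison. The part of these cell types in the Kcne4 values was not tested. Other auxiliary genes fell. Kcnab1 encodes a cytoplasmic beta subunit of Shaker channels. Across the pools, in order, Kcnab1 gave 7.12, 7.14, 7.34, 7.04 and 7.01 in Pit1+/+, then 7.23, 7.35, 7.10, 7.38 and 6.85 in Pit1dw/dw and 6.19, 6.81, 6.93, 5.94 and 5.43 in Prop1df/df. Kcnab1 was lower in Prop1df/df than in Pit1+/+ (log2 change -0.87, SE 0.23, 1.83-fold lower, adjusted p = 0.0211) and Pit1dw/dw (log2 change -0.92, SE 0.23, 1.89-fold lower, adjusted p = 0.0219), with pools 4 and 5 lowest. The call against Pit1+/+ was lost without Prop1df/df pool 4 (adjusted p = 0.0518), that against Pit1dw/dw without Prop1df/df pool 1 or 4 or Pit1dw/dw pool 2 or 4 (adjusted p 0.0513 to 0.0614), and both without Prop1df/df pools 4 and 5 (adjusted p = 0.117 and 0.109). Its other probe set, dim in all groups, gave -0.11 and 0.07, and the mean of both ended the calls (-0.49, adjusted p = 0.0576; -0.42, adjusted p = 0.131). Kcnab3, of the same subfamily, was lower in Prop1df/df than in Pit1dw/dw, at 4.15 ± 0.26 against 4.95 ± 0.31 (log2 change -0.80, SE 0.18, 1.74-fold lower, adjusted p = 0.013), and passed against Pit1+/+ without Pit1+/+ pool 5 (adjusted p = 0.0438). The Kcnab3 call was lost without the pools with Prph above 7 (adjusted p = 0.0721) and without Prop1df/df pools 4 and 5 (adjusted p = 0.0969), and the other, dim probe set gave 0.06. Kcnip3 and Kcnip2, calcium sensors that bind A-type channels, were lower in Prop1df/df than in Pit1+/+. Kcnip3 was at 5.11 ± 0.38, 4.70 ± 0.50 and 4.05 ± 0.61 (log2 change -1.06, SE 0.29, 2.09-fold lower, adjusted p = 0.0276), and Kcnip2 at 6.45 ± 0.54, 5.73 ± 0.18 and 5.69 ± 0.25 (log2 change -0.76, SE 0.21, 1.69-fold lower, adjusted p = 0.031). Kcnip3 lost its call without Prop1df/df pool 1 or 5 or any of Pit1+/+ pools 1 to 4 (adjusted p 0.0528 to 0.0753), and Kcnip2 without Prop1df/df pool 1, 2 or 5 or Pit1+/+ pool 1, 2 or 3 (adjusted p 0.0674 to 0.0819). The other, dim probe sets gave -0.17 for Kcnip3 and -0.03 and -0.0034 for Kcnip2, and averaging ended the Kcnip2 call (-0.26, adjusted p = 0.223). Without Pit1+/+ pool 5, Kcnip2 was also lower in Pit1dw/dw (-0.94, adjusted p = 0.00722), where it did not pass with all pools (-0.73, adjusted p = 0.203).

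**Figure D4:**
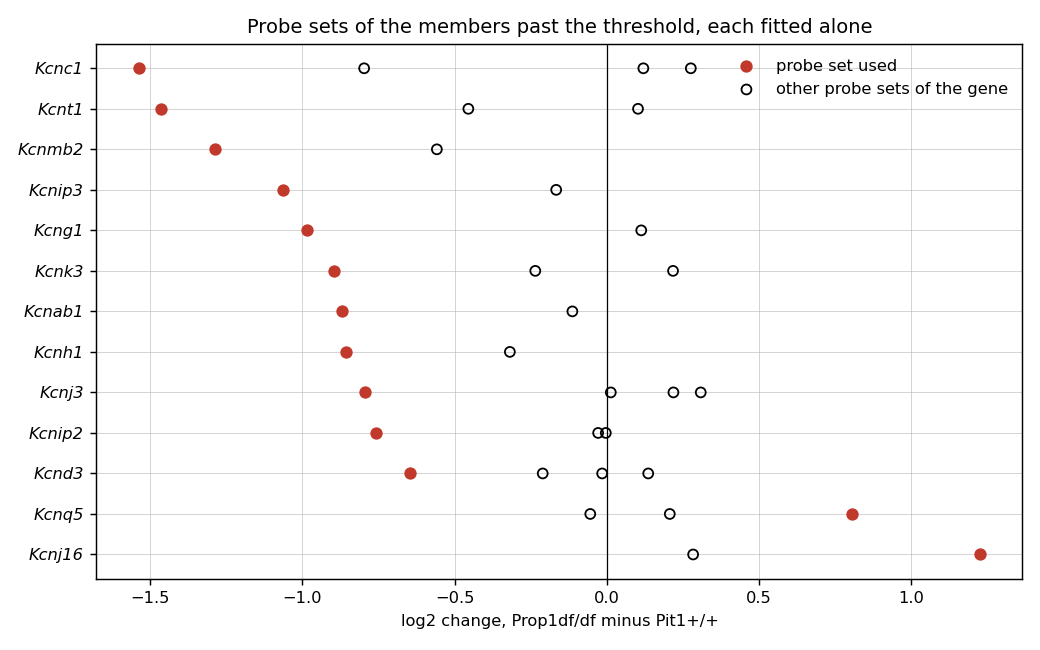
Log2 change in Prop1df/df minus Pit1+/+ (x axis) of every probe set of the called members with more than 1, each fitted alone; filled points are the probe set used and open points the others. For Kcnmb2 and Kcnh1 all probe sets lie below 0, while for Kcnc1, Kcnt1, Kcnk3 and Kcng1 some lie above 0.

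Across both comparisons with Prop1df/df, 8 members were lower and 1 higher than in either other group. Of the 22 members called in any comparison, 10 passed in Prop1df/df against Pit1+/+ and not against Pit1dw/dw. Another 3 passed in Prop1df/df against Pit1dw/dw and not against Pit1+/+. Kcnmb4os2, among those 10, also passed in Pit1dw/dw against Pit1+/+. In Prop1df/df, the calls of Kcnc1, Kcnh1 and Kcnmb2 in both comparisons, of Kcnmb4os2 against Pit1+/+ and of Kcnt1 against Pit1dw/dw kept their side of the threshold in every alternative that held the gene. Kcnmb4os2 drops out when dim probe sets are left out, and its Pit1dw/dw call was lost without the pools with Prph above 7. Averaging the probe sets of a gene ended the calls of Kcnab1, Kcnd3, Kcng1, Kcnip2, Kcnj3, Kcnk3 and Kcnt1 against Pit1+/+ (adjusted p 0.0576 to 0.841) and of Kcnab1 and Kcnk3 against Pit1dw/dw (adjusted p = 0.131 and 0.204). The fit without the pools high in Prph ended those of Kcna5, Kcnab1, Kcne4, Kcnh8, Kcnip2 and Kcnj3 against Pit1+/+ (adjusted p 0.0504 to 0.0717) and of Kcna5, Kcnab1, Kcnab3, Kcnj16, Kcnk1, Kcnk3 and Kcnk15 against Pit1dw/dw (adjusted p 0.0552 to 0.147). The Xist level as a covariate ended those of Kcna5, Kcnab1, Kcnh2, Kcnj16 and Kcnk3 against Pit1dw/dw (adjusted p 0.0550 to 0.115). It also ended that of Kcnh2 against Pit1+/+ (adjusted p = 0.0560). With only the 2 groups compared in the fit, Kcna5, Kcnab1, Kcnd3, Kcnh2, Kcnh8, Kcnip2, Kcnj16, Kcnj3 and Kcnmb4 lost their calls against Pit1+/+ (adjusted p 0.0563 to 0.114). Kcnab1 lost its call against Pit1dw/dw there as well (adjusted p = 0.0526). With either set of Prop1df/df pools split by Gh left out, the calls that held were those of Kcnc1, Kcnh1, Kcnj16, Kcnmb2, Kcnmb4os2 and Kcnt1 against Pit1+/+ and of Kcnc1, Kcnh1, Kcnmb2 and Kcnt1 against Pit1dw/dw.

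Pools of the same group differed most in a set of channel genes that none of the comparisons called. The within-group SD of the 84 members had a median of 0.317, beside 0.251 over all genes, and was highest for Kcna6 (1.39), Kcnj10 (1.31), Kcna1 (1.21), Kcna2 (1.13) and Kcnc4 (1.03). Kcna1, Kcna2 and Kcna6 encode Shaker channels of axons, and Kcnab2 their beta subunit. Kcnj10 is an inward rectifier of glia. Kcna6 read 4.43, 2.74, 7.08, 4.41 and 2.9 in Pit1+/+ pools 1 to 5, 3.50, 4.63, 6.51, 4.48 and 5.47 in Pit1dw/dw and 4.34, 4.91, 6.61, 6.41 and 3.93 in Prop1df/df. The high pools were Pit1+/+ pool 3, Pit1dw/dw pools 3 and 5 and Prop1df/df pools 3 and 4. The pool values of Kcnj10 were 5.21, 2.94, 6.87, 4.54 and 2.65 in Pit1+/+, 3.57, 5.29, 6.26, 4.82 and 5.61 in Pit1dw/dw and 4.00, 5.59, 6.63, 6.47 and 5.13 in Prop1df/df. Across the pools, in order, Kcna1 gave 5.30, 5.58, 8.06, 5.60 and 4.72 in Pit1+/+, then 5.10, 6.88, 7.79, 6.0 and 6.81 in Pit1dw/dw and 5.42, 6.41, 7.86, 8.01 and 5.19 in Prop1df/df. The pools richest in sensory neuron markers (pool 3 of each group, and pool 4 of Prop1df/df) were high for these genes too. Those pools were also high for the mean of 6 measured Schwann cell markers. By pool, that mean was 6.13, 4.99, 8.16, 5.53 and 4.73 in Pit1+/+. It was 5.67, 7.03, 7.34, 5.98 and 6.99 in Pit1dw/dw and 6.04, 7.29, 7.63, 8.10 and 6.41 in Prop1df/df. The part of neurons or Schwann cells in these values was not tested. The neuron marker mean was also raised in Pit1dw/dw pools 2 and 5 (6.64 and 6.49) beside its pools 1 and 4 (4.98 and 4.97). Peripherin (Prph), a filament of peripheral neurons, was above 7 in Pit1+/+ pool 3 (10.59), Pit1dw/dw pools 2 and 3 (7.79 and 9.89) and Prop1df/df pools 3 and 4 (10.46 and 8.93), and at most 4.96 in the others. Pit1dw/dw pool 5, with Prph at 3.51, thus stayed in the fits without the pools with Prph above 7. Pool 3 of Pit1+/+ had the highest value of its group for 31 of 84 members (36.9%) and for 21.3% of all genes.

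A slope of each gene on the mean of the 13 markers was fitted within groups, after these values had been seen. It passed as rising for 10 members (11.9%; 5.57% of all genes) and as falling for 0 (1.07% of all genes), with 18 and 5 members at an unadjusted p below 0.05. The slope, in log2 units per log2 unit of the marker mean, was 0.46 (SE 0.04, adjusted p = 2.59e-06) for Kcnab2 and 0.66 (SE 0.07, adjusted p = 7.75e-06) for Kcna1. It was 0.60 (SE 0.07, adjusted p = 4.68e-05) for Kcna2, 0.73 (SE 0.09, adjusted p = 9.34e-05) for Kcna6 and 0.56 (SE 0.06, adjusted p = 1.17e-05) for Kcnc4. Those 5 also passed without Pit1+/+ pool 3 and Prop1df/df pool 3, the 2 pools farthest from the median marker mean (adjusted p 0.00308 to 0.0361). Kcnd1, Kcnj10, Kcnc1, Kcnc2 and Kcnn1 passed with all pools, with slopes of 0.36, 0.59, 0.21, 0.18 and 0.17, and not without those 2 (adjusted p 0.403 to 0.810). Kcnc1 is the gene of these 10 that was also called between groups. With the marker mean in the fit, its change was -1.67 against Pit1+/+ and -1.44 against Pit1dw/dw, and it was -1.42 and -1.52 when pools with Prph above 7 were left out, each past the threshold. Kcnc4, which did not pass in the comparisons as fitted (-1.0 in Prop1df/df against Pit1dw/dw, adjusted p = 0.357), passed there with the marker mean in the fit (-0.93, adjusted p = 0.0136) and without the pools with Prph above 7 (-1.36, adjusted p = 0.0350). The direction of that Kcnc4 change turned (0.13) when probe sets shared between transcripts were left out, since another probe set then stands for the gene.

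**Figure D5:**
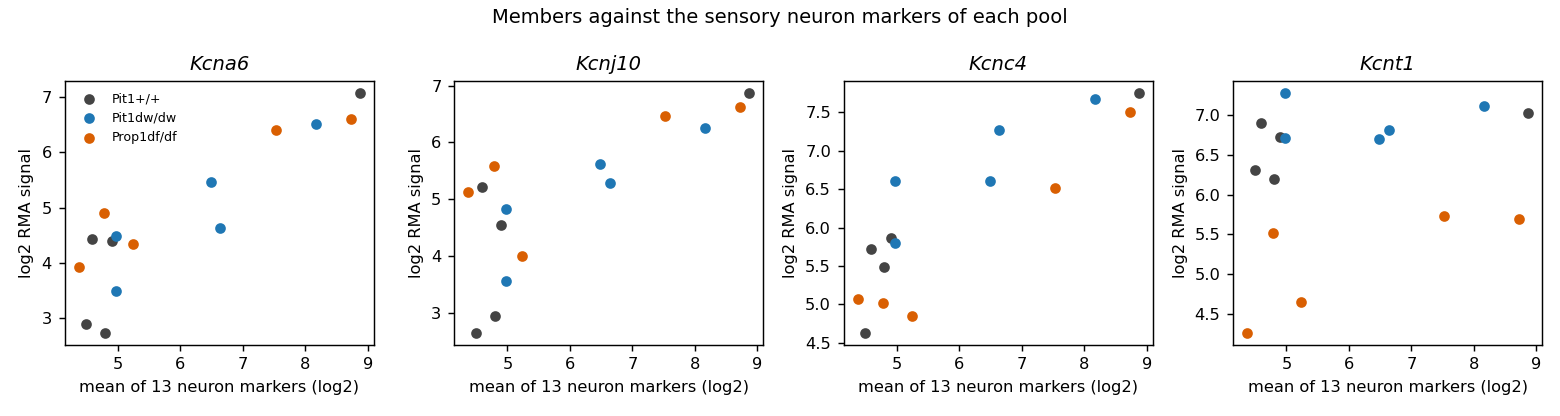
Log2 RMA signal of Kcna6, Kcnj10, Kcnc4 and Kcnt1 (y axis) against the mean of 13 sensory neuron markers (x axis, log2) in each of the 15 pools, coloured by group. Kcna6, Kcnj10 and Kcnc4 are high in the pools with a high marker mean in every group, while each Prop1df/df pool lies below all other pools for Kcnt1.

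The 62 members called in no comparison changed by -0.60 (Kcnma1) to 0.90 (Kcnc4) in Pit1dw/dw against Pit1+/+, by -0.55 (Kcnn4) to 1.12 (Kcnj10) in Prop1df/df against Pit1+/+ and by -1.0 (Kcnc4) to 0.75 (Kcna2) in Prop1df/df against Pit1dw/dw. The 3 non-coding RNAs included Kcnq1ot1, the imprinted antisense RNA of Kcnq1, which was bright and passed in no comparison (9.46 ± 0.30, 9.54 ± 0.54 and 9.53 ± 0.61). Kcnj13 was at 4.76 ± 0.71, 4.97 ± 0.39 and 5.54 ± 0.83 and did not pass (0.78 in Prop1df/df against Pit1+/+, adjusted p = 0.225; 0.0387 without Prop1df/df pool 3). Kcna4, an A-type Shaker channel, lay at 7.85, 7.95 and 8.04 in the 3 groups.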

How the data were processed

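RNA pools of newborn mouse pituitaries were read on 1 array each. The authors processed the arrays with RMA, per the submitters' processing notes; no version is named in the labels. The deposited values are log2 RMA signals (1.83 to 14.83 here), so the size of a change is on the log2 scale and levels of different genes cannot be compared. Of 45101 probe sets, 64 controls were set aside, 34945 name 1 gene in the annotation given, 932 several and 9160 none. The probe set with the highest mean over 15 arrays stood for each of 18193 genes; the 84 members have 167 probe sets, and 46 have more than 1. All 84 matched a RefSeq record by gene ID.

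limma 3.58.1 in R 4.3.3 fitted a mean per group over the 15 arrays, with the default eBayes prior and two-sided tests. Benjamini-Hochberg adjustment ran over every gene of a comparison, at a threshold of 0.05. The p-values measure the spread between pools, which may be technical in part. The procedure was tested on simulated data. The members, gene lists and rules were chosen with earlier results of these data known.

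Named were all called members where at most 15 passed, otherwise the 12 largest changes in each direction; the 3 largest changes that did not pass; 15 members known in pituitary cells, 13 of them measured; and members whose probe sets differ in their call. Others named (Kcnh8, Kcna1, Kcna2, Kcna4, Kcnab2, Kcnd1, Kcnn1, Kcnn2, Kcnn3, Kcnt2, Kcnmb1, Kcnmb4os1, Kcnq1ot1) were chosen after their values were seen. Alternatives changed the normalization, the probe set rule, filters, the prior, weights, covariates or the block, or left out pools; those leaving out Prop1df/df pools by Gh, and the slope on neuron markers, were chosen after the data were seen. Start windows of 250 bases before and 50 after each start are RefSeq's, on GRCm38.p6. Figures were drawn with matplotlib.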

Additional observations from a re-analysis of the deposited data

Results flagged for a closer look

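In 114 groups of 5 pools, 8 (7.02%) had a pool whose gap to its nearest neighbour was large for the range of the group by Dixon's test, which marks about 1 in 20 groups by chance. The mean of the sensory neuron markers was 8.87 in Pit1+/+ pool 3, with the next pool at 4.90. Kcnq3 was 6.20 in the same pool, with the next at 5.19. Pool 5 of Pit1+/+ was low for Kcnj8 (4.76, next 5.89) and for Kcnip3 (4.45, next 5.21), and it was the lowest of its group for 40.5% of members and 40.4% of all genes. Kcnma1 was 5.92 in Pit1dw/dw pool 3, with the next at 6.44, and Kcnd3 was 8.36 in Pit1dw/dw pool 4, with the next at 8.61. Kcnj16 was 5.86 in Prop1df/df pool 4, with the next at 4.50, and Kcnj6 was 3.04 in Prop1df/df pool 2, with the next at 3.30.

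A probe set of Kcnd2 that was not used for the gene, because another is brighter, was lower in Prop1df/df than in Pit1dw/dw when fitted alone (log2 change -0.80, adjusted p = 0.00752). The probe set used gave -0.17 there and did not pass. The values of both lie near the median of all probe sets.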

How the results depend on the processing

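Of 32 called member results, 0 reversed, 8 kept their call in every alternative and 24 lost it in at least 1. Counts of called members that moved by over 1.5 times were as follows. In Pit1dw/dw against Pit1+/+ the count of 1 became 0 with dim probe sets left out and 7 with array weights. In Prop1df/df against Pit1+/+ the count of 19 became 12 when probe sets of a gene were averaged, 10 with only the 2 groups compared in the fit, and 9 without the Prop1df/df pools with Gh above 13 or those below 11. In Prop1df/df against Pit1dw/dw the count of 12 became 19 with array weights, 6 without the pools with Prph above 7, 7 with the Xist level as a covariate, and 6 without the Prop1df/df pools with Gh above 13 or below 11. Leaving out 1 pool gave 1 to 3, 11 to 21 and 7 to 16. Fewer samples enter the fits that leave out pools or a group; for the others the cause was not tested. The main fit did not pair pools by number. Pools of the same number had correlations of deviations from -0.309 to 0.674. For number 3, the pools rich in sensory neuron markers, they were 0.639, 0.674 and 0.509 in the 3 comparisons. For each other number the sign differed between comparisons. With the replicate block the counts were 1, 19 and 15, beside 1, 19 and 12 without it.

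Of 111 named results, 29 changed sign in at least 1 alternative, 2 of them with 1 pool left out alone. None of the 29 had passed (lowest adjusted p 0.131), nor did any alternative that turned one (lowest adjusted p 0.525). In Pit1dw/dw against Pit1+/+ the log2 change turned for Kcna5 (-0.057), Kcne4 (-0.12), Kcnh2 (-0.051), Kcnj13 (-0.21) and Kcnj16 (-0.021) with array weights, for Kcna5 (-0.093), Kcnc1 (0.099) and Kcnj6 (-0.28) without the pools with Prph above 7, and for Kcna5 (-0.034) and Kcnh2 (-0.0038) with the Xist level as a covariate. It also turned for Kcnab1 (-0.069), Kcnj16 (-0.034), Kcnj5 (-0.0088) and Kcnj9 (-0.021) with the mean of probe sets, for Kcnc4 (-0.013) and Kcnj6 (-0.027) without probe sets shared between transcripts, and for Kcnh2 (-0.064) and Kcnj16 (-0.10) with the neuron marker mean as a covariate. With 1 pool left out, changes on both sides of 0 were found there for Kcna5 -0.11 to 0.17, Kcnc1 -0.19 to 0.18, Kcnd2 -0.082 to 0.19, Kcne4 -0.12 to 0.50, Kcnh2 -0.15 to 0.18, Kcnj13 -0.014 to 0.44, Kcnj16 -0.12 to 0.20, Kcnj5 -0.044 to 0.072, Kcnj6 -0.025 to 0.13 and Kcnk3 -0.30 to 0.048. In Prop1df/df against Pit1+/+ the log2 change turned for Kcnc4 (0.011) and Kcnma1 (0.14) with the mean of probe sets, for Kcnc4 (0.12) and Kcnj6 (-0.069) without probe sets shared between transcripts, for Kcnd2 (0.031) and Kcnk2 (0.24) without the Prop1df/df pools with Gh above 13, and for Kcnj6 (-0.014) with array weights. It also turned for Kcnj6 (-0.12) without the pools with Prph above 7, for Kcnk2 (0.019) after a further quantile normalization, and for Kcnk2 (0.0097) and Kcnq3 (-0.034) with the neuron marker mean as a covariate. With 1 pool left out, changes on both sides of 0 were found there for Kcnc4 -0.53 to 0.37, Kcnd2 -0.23 to 0.016, Kcnj6 -0.0083 to 0.14, Kcnk2 -0.098 to 0.063 and Kcnq3 -0.0081 to 0.31. In Prop1df/df against Pit1dw/dw the log2 change turned for Kcna6 (-0.093), Kcnj11 (0.14) and Kcnn4 (-0.34) without the pools with Prph above 7, for Kcnc4 (0.13) and Kcnj6 (-0.042) without probe sets shared between transcripts, for Kcng1 (0.068), Kcnip2 (0.076), Kcnj11 (0.13) and Kcnj3 (0.0071) with the mean of probe sets, for Kcng1 (0.0027) and Kcnj6 (-0.028) with array weights, and for Kcng1 (0.063), Kcnh8 (0.0075), Kcnj11 (0.029) and Kcnmb4 (0.11) with the Xist level as a covariate. It also turned for Kcng1 (0.022) and Kcnmb4 (0.028) without the Prop1df/df pools with Gh above 13, for Kcnh8 (0.065) and Kcnj6 (-0.025) without the Prop1df/df pools with Gh below 11, for Kcnj6 (-0.050) and Kcnn4 (-0.037) with each array centred on its median, and for Kcnj6 (-0.048) and Kcnn4 (-0.037) after a further quantile normalization. With 1 pool left out, changes on both sides of 0 were found there for Kcna6 -0.033 to 0.72, Kcng1 -0.078 to 0.020, Kcnh8 -0.17 to 0.075, Kcnip2 -0.12 to 0.030, Kcnj11 -0.13 to 0.094, Kcnj6 -0.042 to 0.079, Kcnmb4 -0.19 to 0.14 and Kcnn4 -0.099 to 0.18. Signal over background limits the 37 members with all group means below 4.37.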
